A study of Mus musculus with 4 samples.

Results

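Transcripts of 9 genes of insulin and insulin-like growth factor (IGF) signalling were followed through the cell classes of the mouse hippocampus: the ligand gene Igf1, the receptor genes Igf1r, Insr and Igf2r, the adaptor genes Irs1 and Irs2, the adaptor gene Grb10, which restrains signalling, and the transcription factor genes Foxo1 and Foxo3. They were listed by name rather than by a limit on measured values, though with earlier results of these data known, and all 9 were found among the 56748 genes listed. The nuclei came from 8 pools of hippocampus, each from 3 male mice, and every pool was 1 condition. The comparisons asked where each gene was transcribed, whether its level differed after repeated social defeat (RSD), after a diet with PLX5622, and in mice lacking the interleukin-1 receptor in glutamatergic neurons.

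Stress was RSD, in which an aggressive CD-1 male was placed in the home cage for 2 h on each of 6 nights, and nuclei were taken 14 h after the last session, while control mice were left undisturbed. The diet pools were given plain chow (Control-Vehicle and Stress-Vehicle) or the CSF1R antagonist PLX5622 (Control-PLX5622 and Stress-PLX5622). In its diet experiments the paper used purchased C57BL/6 mice, bought at 5 to 7 weeks, on AIN-76A chow. PLX5622 was fed for 7 days before stress to deplete microglia. In the fear-conditioning experiment of the paper these diets were continued to the end of the study. The paper describes single nuclei only for the genotype pools. Strain, age, diet timing and the 14 h interval of the diet pools are therefore taken from its methods for other experiments. The genotype pools came from mice bred in-house. In nIL-1R1-/- mice (pools Con-nIL-1R1-/- and Stress-nIL-1R1-/-), Cre driven from the Vglut2 (Slc17a6) gene deletes Il1r1. The IL-1R1+/+ mice (Con-IL-1R1+/+ and Stress-IL-1R1+/+) are without that deletion. Stress could therefore be compared in 4 control and stress pairs, whereas each diet or genotype was represented by 1 control pool and 1 stress pool. Diet and genotype were varied in different sets of mice. Mice within a pool could not be separated, and p-values measure the spread between pools.

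Insulin and IGF-1 bind related receptor tyrosine kinases, encoded by Insr and Igf1r, which phosphorylate the adaptor proteins IRS1 and IRS2 and through them activate phosphoinositide 3-kinase (PI3K) and Akt. Akt phosphorylates the FoxO transcription factors, which then leave the nucleus, so that FoxO target genes are transcribed mainly when the pathway is quiet. Igf2r encodes a receptor that clears IGF-2 and sorts lysosomal enzymes rather than signalling as a kinase. In the brain these genes are known for growth, metabolism and survival of neurons and glia, and for transport of insulin and IGF-1 across the vessel wall.

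The files held 57350 nuclei, of which 56834 with at most 20% mitochondrial transcripts were kept, and no barcode occurred in more than 1 pool. Depth differed widely: the median was 598 unique molecular identifiers (UMIs, counted transcripts) per nucleus in Control-PLX5622, 628 in Stress-PLX5622 and between 1326 and 5012 in the other 6 pools. Nuclei were clustered without the 9 genes or their pathway, and clusters were named by marker genes as "-like" classes, which left 13070 nuclei (23.0%) unnamed. The 13 classes with at least 20 nuclei in at least 6 pools were dentate gyrus (DG)-like, CA1-like, CA2/3-like, inhibitory (INH)-like, other excitatory-like with a Kcnh8-led and a Sulf1-led class, Slc17a6 excitatory-like led by Zfhx3, Cajal-Retzius-like, astrocyte-like, oligodendrocyte-like, oligodendrocyte precursor-like, microglia-like and endothelial-like. Levels are compared among these. Named but not compared were a Synpo2-led Slc17a6 excitatory-like class (539 nuclei), medium spiny-like (265, of which 246 in Stress-IL-1R1+/+) and cerebellar granule-like nuclei (128). The last 2 are named for cell types of other brain regions. Whether these nuclei or the Zfhx3-led class came from outside the hippocampus was not tested. Of the 1940 nuclei of the Zfhx3-led class, 1525 came from Con-IL-1R1+/+, and the microglia-like class kept 8 and 9 nuclei in the PLX5622 pools against 153 to 199 in the others. The endothelial-like class held 362 nuclei (17 to 65 per pool) and also carried markers of mural cells, which the clustering did not separate from endothelial ones. As a check of the genotype, Il1r1 in DG-like nuclei stood at 11.4 and 9.14 CPM (UMIs of the gene per 1000000 UMIs of the class) in the nIL-1R1-/- pools and at 61.0 and 29.8 CPM in the IL-1R1+/+ pools (control, then stress).

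Levels are given as CPM per class and pool, as mean ± SD over the pools in which the class had at least 20 nuclei (n = 8 unless stated). CPM depends on gene length and abundance together, and values are compared within a gene, across classes, and not between genes. A CPM sums the nuclei of a class, so that fewer transcripts per nucleus and fewer nuclei with transcripts are not separated in these values.

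Igf1 (chromosome 10, 87693642 to 87772904, plus strand, GRCm39) encodes the secreted IGF-1. It was concentrated in the INH-like class, where CPM was 58.9 in Control-Vehicle, 79.0 in Stress-Vehicle, 61.6 in Control-PLX5622, 70.7 in Stress-PLX5622, 86.8 in Con-IL-1R1+/+, 114.5 in Stress-IL-1R1+/+, 82.5 in Con-nIL-1R1-/- and 113.2 in Stress-nIL-1R1-/-. Every one of these values lay above the highest value of any other class, which was 26.4 CPM, and the INH-like class held 2588 (72.9%) of the 3550 Igf1 UMIs. Mean Igf1 was 83.4 ± 21.1 CPM in INH-like nuclei, 13.4 ± 9.47 in the Zfhx3-led class, 10.0 ± 5.58 in microglia-like (n = 6), 6.94 ± 2.62 in oligodendrocyte precursor-like and 6.14 ± 6.82 in astrocyte-like nuclei. In the remaining 8 classes the mean lay between 0.536 CPM (endothelial-like, 1 UMI in all) and 3.34 CPM (Cajal-Retzius-like, 2 UMIs). Microglia are a known source of IGF-1 in the brain, and here the microglia-like class gave 75 Igf1 UMIs, or 2.11% of the total. That class held 1080 nuclei, or 1.9% of all nuclei, and was depleted in the PLX5622 pools.

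Within the INH-like class Igf1 was uneven. The cluster led by Adarb2, a gene of interneurons from the caudal ganglionic eminence, had 197 ± 51.5 CPM of Igf1, the Egfr-led cluster 65.8 ± 30.6 and the Nxph1-led cluster 31.6 ± 5.44 CPM (n = 8 each). The lowest pool of the Adarb2-led cluster, at 126.9 CPM, stood above the highest of the Egfr-led cluster at 104.4 and of the Nxph1-led cluster at 40.6. The gene profiles most like Igf1 across the 13 ordered classes were Pip5kl1 (Pearson r = 0.965), Vip (0.953), which encodes the peptide of a class of interneurons, and B020031H02Rik (0.947), each highest in INH-like nuclei. These r values describe 13 class means of 12184 genes that share pools and depth.

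Igf1r (chromosome 7, 67601518 to 67883416, plus strand) encodes the receptor kinase for IGF-1. In endothelial-like nuclei its CPM was 4068 in Control-Vehicle, 3909 in Stress-Vehicle, 3877 in Stress-PLX5622, 3795 in Con-IL-1R1+/+, 5225 in Stress-IL-1R1+/+, 2520 in Con-nIL-1R1-/- and 4211 in Stress-nIL-1R1-/-. The 17 endothelial-like nuclei of Control-PLX5622, too few to enter the mean, gave 45 Igf1r UMIs and 3136 CPM. The mean of 3944 ± 794 CPM (n = 7) was 8.89 times that of the next class, and the lowest of the 7 pools lay above the highest pool of any other class, 535 CPM. Next came Sulf1-led (444 ± 53.4), Kcnh8-led (396 ± 32.4), Cajal-Retzius-like (362 ± 97.4, n = 6), CA2/3-like (353 ± 35.0), astrocyte-like (343 ± 59.2), oligodendrocyte-like (320 ± 43.8) and microglia-like nuclei (299 ± 41.1, n = 6). Oligodendrocyte precursor-like (263 ± 35.7), DG-like (242 ± 14.8), Zfhx3-led (226 ± 51.1), INH-like (189 ± 18.6) and CA1-like nuclei (161 ± 11.5) closed the order. Among the principal cells, Igf1r was higher in CA2/3-like than in CA1-like nuclei, with the lowest CA2/3-like pool at 279 and the highest CA1-like pool at 176 CPM. Its closest profiles were Gjc1 (r = 0.945), a gap junction gene, the gene ENSMUSG00000120434, listed without a symbol (0.944), and Rasip1 (0.943), a gene of vessel formation.

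Insr (chromosome 8, 3172061 to 3329647, minus strand) encodes the insulin receptor. Its CPM in endothelial-like nuclei was 640 in Control-Vehicle, 558 in Stress-Vehicle, 786 in Stress-PLX5622, 634 in Con-IL-1R1+/+, 698 in Stress-IL-1R1+/+, 380 in Con-nIL-1R1-/- and 741 in Stress-nIL-1R1-/-. As for Igf1r, the lowest of these 7 pools lay above every pool of every other class (at most 260 CPM), and the mean of 634 ± 135 was 2.86 times that of oligodendrocyte-like nuclei (221 ± 28.2). Astrocyte-like (171 ± 42.3), Cajal-Retzius-like (167 ± 18.2, n = 6), microglia-like (167 ± 27.9, n = 6) and oligodendrocyte precursor-like nuclei (164 ± 35.5) followed. The neuronal classes were close together, from 152 ± 25.6 (Sulf1-led), 149 ± 9.13 (DG-like), 146 ± 22.4 (Kcnh8-led) and 144 ± 9.04 (INH-like) to 134 ± 33.9 (Zfhx3-led), 125 ± 16.0 (CA2/3-like) and 124 ± 7.14 CPM (CA1-like). The closest profiles to Insr were Cd2ap (r = 0.973), Polk (0.968) and Rnf125 (0.966), all highest in endothelial-like nuclei.

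Igf2r (chromosome 17, 12901293 to 12988614, minus strand) was the most even of the receptors. Its means ran from 49.1 ± 19.1 CPM in the Zfhx3-led class, 44.5 ± 13.5 in endothelial-like (n = 7), 43.6 ± 4.85 in Sulf1-led, 42.5 ± 13.0 in Kcnh8-led, 36.7 ± 3.48 in DG-like and 35.4 ± 8.95 in INH-like nuclei. They went on with 34.3 ± 5.11 in CA2/3-like, 33.0 ± 6.96 in microglia-like (n = 6), 31.1 ± 6.31 in oligodendrocyte precursor-like, 30.9 ± 5.64 in CA1-like and 29.1 ± 6.24 in astrocyte-like nuclei. Cajal-Retzius-like (19.99 ± 18.5, n = 6, 12 UMIs) and oligodendrocyte-like nuclei (19.8 ± 6.32) were lowest. The Zfhx3-led class was highest in only 2 of 8 pools, 5 classes were highest in at least 1 pool, and the endothelial-like class, highest most often, led in 3. Epg5, an autophagy gene (r = 0.956), Mrps18c (0.951) and Mppe1 (0.946) had the closest profiles to Igf2r.

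**Figure D1:**
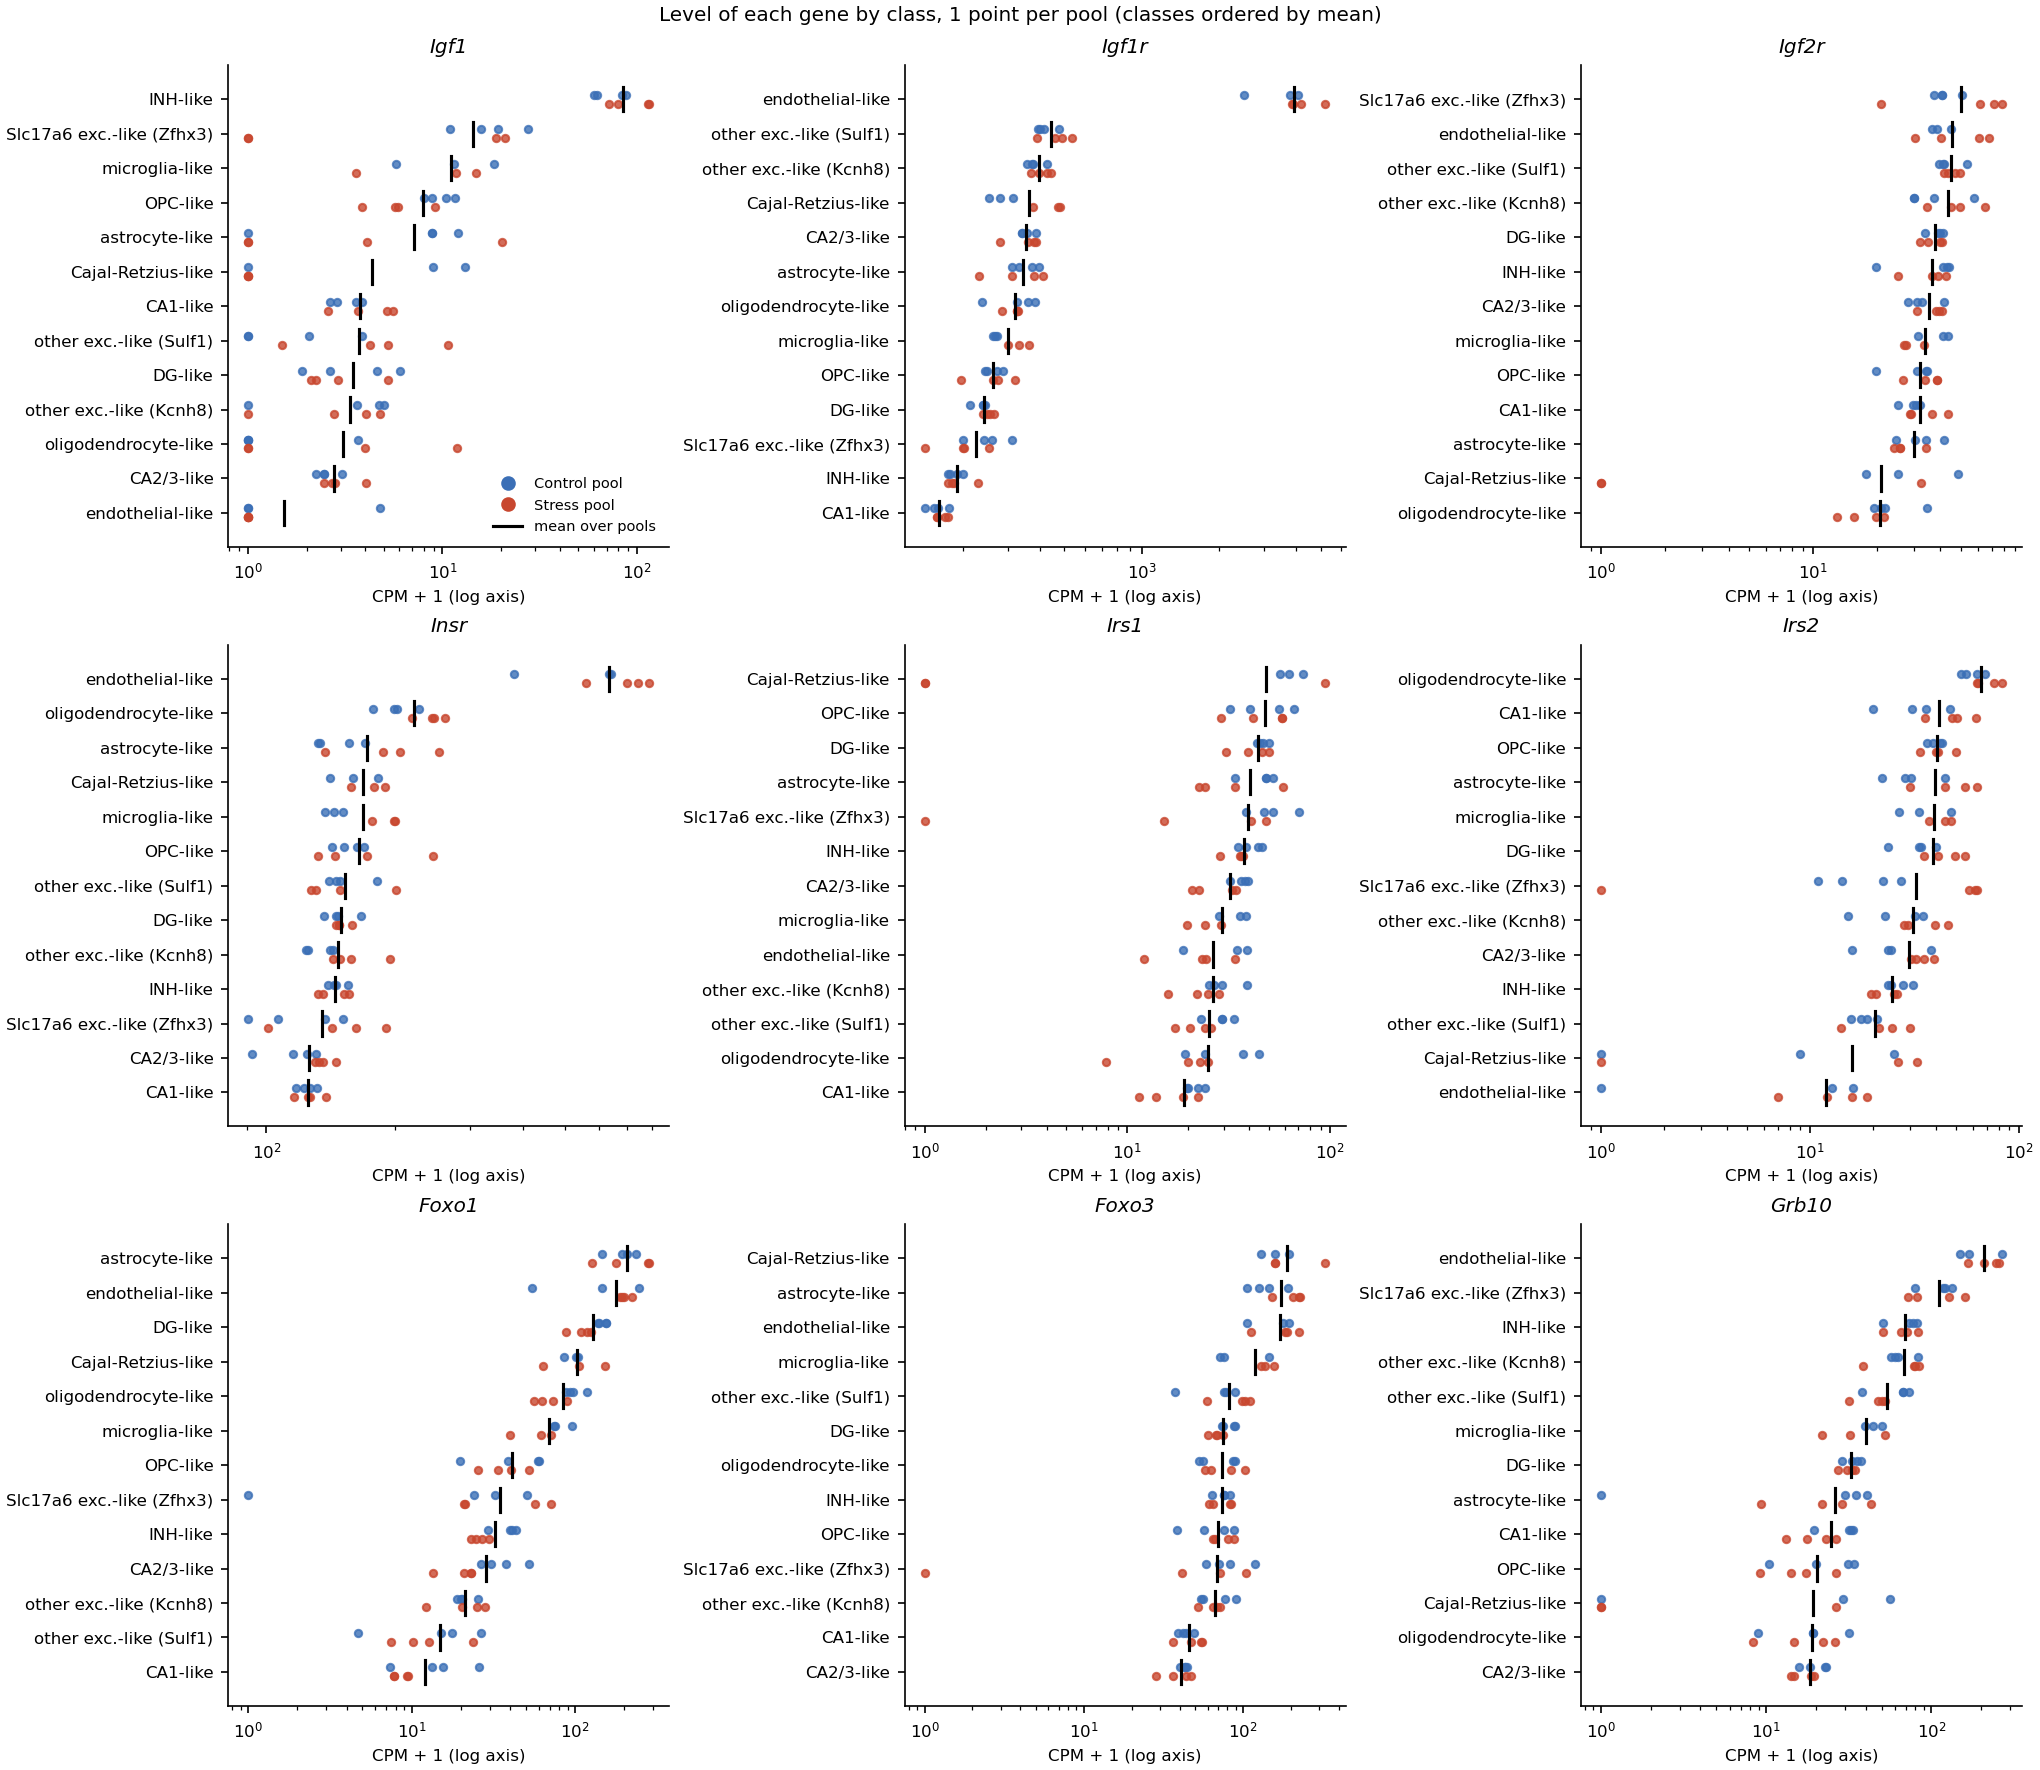
Level of each of the 9 genes in 13 classes as CPM + 1 on a log axis, with 1 point per pool of at least 20 nuclei (blue control, red stress), the mean over pools as a black bar, and classes in order of the mean. Igf1 in INH-like nuclei (58.9 to 114.5 CPM) and Igf1r and Insr in endothelial-like nuclei (2520 to 5225 and 380 to 786 CPM) lay above every pool of every other class, while Igf2r differed little from class to class.

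Irs1 (chromosome 1, 82210822 to 82269338, minus strand) and Irs2 (chromosome 8, 11034681 to 11059499, minus strand) encode the main docking proteins of both receptors, and their orders across classes differed. Mean Irs1 was 47.3 ± 38.9 CPM in Cajal-Retzius-like nuclei, on 27 UMIs from 6 pools, 46.8 ± 13.8 in oligodendrocyte precursor-like, 43.1 ± 6.37 in DG-like, 39.4 ± 13.5 in astrocyte-like, 38.3 ± 21.9 in Zfhx3-led and 36.9 ± 5.37 in INH-like nuclei. It was 31.1 ± 6.91 in CA2/3-like, 28.3 ± 7.10 in microglia-like (n = 6), 25.6 ± 9.69 in endothelial-like (n = 7), 25.5 ± 6.50 in Kcnh8-led, 24.4 ± 5.31 in Sulf1-led, 24.2 ± 11.4 in oligodendrocyte-like and 18.1 ± 4.41 in CA1-like nuclei. Among the principal cells Irs1 thus ran from DG-like through CA2/3-like to CA1-like nuclei, where the highest pool (23.3 CPM) lay below the lowest DG-like pool (29.7). Its closest profiles were Obsl1 (r = 0.842), Slitrk2 (0.840) and Sema5a, each highest in DG-like nuclei.

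Irs2 was highest in oligodendrocyte-like nuclei, where CPM was 61.8 in Control-Vehicle, 75.4 in Stress-Vehicle, 55.0 in Control-PLX5622, 81.9 in Stress-PLX5622, 67.7 in Con-IL-1R1+/+, 61.8 in Stress-IL-1R1+/+, 52.0 in Con-nIL-1R1-/- and 63.0 in Stress-nIL-1R1-/-. The class led all others in 7 of 8 pools, with a mean of 64.8 ± 9.96. CA1-like nuclei came next at 40.3 ± 13.2, then oligodendrocyte precursor-like (39.6 ± 4.84), astrocyte-like (38.7 ± 14.4), microglia-like (38.4 ± 8.46, n = 6) and DG-like nuclei (38.0 ± 9.98). Lower means were found in Zfhx3-led (31.2 ± 24.8), Kcnh8-led (30.04 ± 9.58), CA2/3-like (28.8 ± 7.98), INH-like (23.8 ± 3.68), Sulf1-led (19.4 ± 5.16), Cajal-Retzius-like (14.8 ± 13.9, n = 6, 5 UMIs) and endothelial-like nuclei (10.9 ± 6.08, n = 7, 16 UMIs). CA1-like nuclei, with the lowest Irs1, thus stood second for Irs2, and endothelial-like nuclei, with the highest Insr and Igf1r, stood last. Zfp706 (r = 0.947), Cep44 (0.929) and Zswim5 (0.925) had the profiles most like Irs2.

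Grb10 (chromosome 11, 11880498 to 11988683, minus strand) encodes an adaptor that binds the activated receptors and holds back their signal. Its CPM in endothelial-like nuclei was 266 in Control-Vehicle, 208 in Stress-Vehicle, 255 in Stress-PLX5622, 169 in Con-IL-1R1+/+, 247 in Stress-IL-1R1+/+, 149 in Con-nIL-1R1-/- and 165 in Stress-nIL-1R1-/-. The class was highest in 7 of 7 pools at 208 ± 48.3 CPM, although its lowest pool lay below the highest of the Zfhx3-led class (160 CPM). Next were the Zfhx3-led (111 ± 31.1), INH-like (68.2 ± 12.6), Kcnh8-led (66.9 ± 16.2) and Sulf1-led classes (52.6 ± 14.8), followed by microglia-like (39.1 ± 11.5, n = 6), DG-like (31.5 ± 3.42), astrocyte-like (25.3 ± 14.9) and CA1-like nuclei (23.8 ± 7.66). Oligodendrocyte precursor-like (19.4 ± 9.38), Cajal-Retzius-like (18.1 ± 22.5, n = 6, 13 UMIs), oligodendrocyte-like (17.8 ± 8.12) and CA2/3-like nuclei (17.4 ± 3.39) had the least. Sgpp2 (r = 0.923) and Rnf14 (0.911) were among the closest profiles to Grb10.

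Foxo1 (chromosome 3, 52175757 to 52260642, plus strand) spanned the widest range among the classes after Igf1 and Igf1r. Its means were 206 ± 57.3 CPM in astrocyte-like, 178 ± 62.8 in endothelial-like (n = 7), 128 ± 23.4 in DG-like, 101 ± 29.5 in Cajal-Retzius-like (n = 6), 83.6 ± 19.96 in oligodendrocyte-like, 68.6 ± 18.5 in microglia-like (n = 6) and 40.3 ± 15.0 in oligodendrocyte precursor-like nuclei. Lower levels were found in the Zfhx3-led (33.9 ± 23.2), INH-like (31.4 ± 8.04), CA2/3-like (27.5 ± 11.99), Kcnh8-led (20.3 ± 4.96), Sulf1-led (13.8 ± 7.65) and CA1-like classes (11.1 ± 6.27). The astrocyte-like class was highest in 4 of 8 pools, and 3 classes were highest in at least 1 pool. Astrocyte-like lay above endothelial-like nuclei in 3 of 7 pools (exact permutation p = 0.5625, adjusted p = 0.884). The first mean was 18.6 times the last, and among the principal cells the lowest DG-like pool (86.7 CPM) lay above the highest CA2/3-like (51.4) and CA1-like pool (24.9). Gm28047 (r = 0.925) and Znrf3 (0.897), which encodes a brake on Wnt signalling, were among the profiles most like Foxo1.

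Foxo3 (chromosome 10, 42057837 to 42154007, minus strand) was more even. Means were 187 ± 72.4 CPM in Cajal-Retzius-like (n = 6, 80 UMIs), 172 ± 46.4 in astrocyte-like, 169 ± 43.8 in endothelial-like (n = 7) and 119 ± 36.4 in microglia-like nuclei (n = 6). The Sulf1-led (80.8 ± 24.4), DG-like (73.5 ± 9.60), oligodendrocyte-like (73.1 ± 18.9), INH-like (72.9 ± 9.36), oligodendrocyte precursor-like (68.9 ± 16.8), Zfhx3-led (67.8 ± 36.9) and Kcnh8-led classes (66.0 ± 13.1) lay close together, above CA1-like (45.1 ± 6.85) and CA2/3-like nuclei (39.9 ± 6.01). Foxo1 and Foxo3 thus shared astrocyte-like and endothelial-like nuclei among their first 3 classes and CA1-like nuclei among their last 2. Among the closest profiles to Foxo3 were Sesn1 (r = 0.888), a stress-response gene reported as a FoxO target, and 9930021J03Rik (0.877).

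Neighbours in these orders were compared within pools by an exact two-sided sign-flip permutation test of log2(CPM + 1). Over 8 pools that test cannot go below p = 0.00781, and none of the 107 neighbouring pairs passed after adjustment over all of them (smallest adjusted p = 0.186, exact permutation test). To pass, 17 results at that smallest p would have been needed, and 4 of the 65 pairs over 8 pools reached it. Unadjusted, 14 pairs had p under 0.05. They included the first step of Igf1 (INH-like over Zfhx3-led, 8 of 8 pools, exact permutation p = 0.00781), Irs2 (oligodendrocyte-like over CA1-like, 8 of 8, p = 0.00781), and Igf1r, Insr and Grb10 (endothelial-like over the next class, 7 of 7 pools, p = 0.0156 each, the smallest 7 pools allow). For Igf2r no neighbouring pair of 12 reached an unadjusted p under 0.05, and for Irs1 only INH-like over CA2/3-like did (7 of 8 pools, exact permutation p = 0.0234, adjusted p = 0.251).

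Stress was tested in 10 classes with at least 20 nuclei in every pool, by edgeR's quasi-likelihood test over the 4 pairs with all genes of a class in the fit. The classes came from the same pools, so the signs of a gene across classes are not separate observations. How often other genes had as many classes on the same side of 0 is not given here. The members gave 76 gene-class results. None passed an adjusted p of 0.05 in edgeR or, among 90 results of which 33 had no adjusted p, in DESeq2, against a background of 0.157% of all gene-class results in edgeR. At an unadjusted p under 0.05 there were 13 of the 76 (17.1%), 5 higher and 8 lower after stress, where the background of all genes was 10.9%. The 13 were Foxo1 in DG-like, CA2/3-like, CA1-like, INH-like and oligodendrocyte-like nuclei, Grb10 in CA1-like and Sulf1-led, Irs1 in oligodendrocyte-like, all lower, and Irs2 in CA1-like and DG-like, Foxo3 in astrocyte-like and Sulf1-led, and Igf1 in INH-like nuclei, all higher. The median log2 ratio (stress over control) was -0.03 over the members and 0.00 over all genes tested. Control and stress pools did not overlap in 3 of the 76 results (3.95%), close to the background of 4.14%. The 3 were Foxo1 in DG-like and in CA2/3-like nuclei, both lower after stress (2.23% of all results did not overlap in this direction), and Insr in the Kcnh8-led class, higher after stress.

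Foxo1 in DG-like nuclei had 137.8 CPM in Control-Vehicle, 139.0 in Control-PLX5622, 154.1 in Con-IL-1R1+/+ and 154.1 in Con-nIL-1R1-/-, against 107.6 in Stress-Vehicle, 86.7 in Stress-PLX5622, 117.7 in Stress-nIL-1R1-/- and 124.9 in Stress-IL-1R1+/+. Every stress pool thus lay below every control pool, as for 2.0% of the genes tested in this class in this direction. Within pairs, stress differed from control by a log2 ratio of -0.36 (95% counting interval -0.57 to -0.15) under the plain diet, -0.68 (-1.08 to -0.28) under PLX5622, -0.30 (-0.49 to -0.12) in IL-1R1+/+ and -0.39 (-0.57 to -0.21) in nIL-1R1-/- mice. These intervals hold counting error only. The fitted log2 ratio over the pairs was -0.43 (SE 0.11, adjusted p = 0.125 in edgeR). The DG-like class was made of a deeper, Glis3-led cluster and a shallow, Mmel1-led cluster, whose share of the class ran from 14.5% to 88.7% among pools. In the Glis3-led cluster Foxo1 was at 138.9 to 155.2 CPM in control and 108.2 to 126.3 in stress pools, and in the Mmel1-led cluster at 126.3 to 163.2 and 77.5 to 108.1 CPM, so that the groups did not overlap in either cluster. Both clusters are parts of this class from the same pools, and the share of all genes without overlap in each is not given here. The part of the cluster makeup in the DG-like value was not tested. Summed astrocyte markers in DG-like nuclei (8 genes, 6 to 8 above 0 in each pool) were 799 to 935 CPM in control and 772 to 1001 in stress pools. The sum includes Slc4a4, which was itself among the 10 leading genes of the Glis3-led cluster, so that it does not measure astrocyte transcripts alone. The part of these markers in the result was not tested. The stress pools of the plain diet and of nIL-1R1-/- mice were also shallower than their controls (median 1326 against 2563 and 2580 against 5012 UMIs per nucleus). In nuclei thinned to 500 UMIs the ratio kept its sign. Thinning left out 40.3% of the nuclei of Control-PLX5622 and 36.5% of those of Stress-PLX5622. The part of depth in the result was not tested.

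Foxo1 in CA2/3-like nuclei had 36.8 CPM in Control-Vehicle, 29.7 in Control-PLX5622, 25.6 in Con-IL-1R1+/+ and 51.4 in Con-nIL-1R1-/-, against 12.5, 19.9, 22.0 and 22.2 CPM in the matching stress pools. The groups did not overlap, with a background of 3.04% in this class, but the gap was narrow in IL-1R1+/+ mice, where the log2 ratio was -0.22 (counting interval -0.66 to 0.22), and in the PLX5622 pair (-0.58, -1.68 to 0.45, on 24 and 13 UMIs). It was wider under the plain diet (-1.56, -2.26 to -0.92) and in nIL-1R1-/- mice (-1.21, -1.67 to -0.78). The fitted log2 ratio was -0.91 (SE 0.21, adjusted p = 0.114 in edgeR), the smallest adjusted p of any member. It passed 0.05 under 4 of 17 alternatives: without a filter on low counts (adjusted p = 8.70e-04), with finer clusters (0.0394), without Control-PLX5622 (0.0462) and without Stress-PLX5622 (0.0417). Over all 17 the adjusted p reached 0.711. Summed DG markers (8 genes, 7 or 8 above 0) were at 142 to 275 CPM in control and 142 to 287 CPM in stress pools of CA2/3-like nuclei, and their part in the result was not tested.

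In CA1-like nuclei Foxo1 was low, with 14.6, 24.9, 6.40 and 12.3 CPM in the control and 6.86, 8.33, 8.53 and 6.83 CPM in the stress pools (plain diet, PLX5622, IL-1R1+/+, nIL-1R1-/-). The groups overlapped, since the IL-1R1+/+ pair went the other way, and the log2 ratio was -0.75 (SE 0.27, adjusted p = 0.207 in edgeR). The class was made of 3 clusters that differed in Foxo1, with 16.3 ± 8.30 CPM in the Ccn3-led, 6.89 ± 7.84 in the shallow Bc1-led and 4.04 ± 1.96 in the 4921539H07Rik-led cluster (n = 8 each), and different clusters held most of it in different pools. The share of the Ccn3-led cluster went from 48.7% of CA1-like nuclei in control to 21.2% in stress pools under the plain diet, from 22.3% to 7.61% under PLX5622, from 26.2% to 34.4% in IL-1R1+/+ and from 37.1% to 31.9% in nIL-1R1-/- mice, in each pair in the direction of Foxo1. The shallow Bc1-led cluster made up 16.3% of the class in Control-Vehicle and 60.1% in Stress-Vehicle. Within the Ccn3-led cluster Foxo1 was at 20.4, 34.1, 11.7 and 18.8 CPM in control and 8.47, 13.2, 14.7 and 9.45 CPM in the matching stress pools, lower in the same 3 of 4 pairs. The part of the cluster makeup in the class value was not tested. In INH-like nuclei the same pairs had 28.3, 40.3, 39.2 and 42.5 CPM in control and 28.8, 22.0, 26.0 and 23.9 CPM in stress pools, lower in 3 of 4 pairs and level under the plain diet, with a log2 ratio of -0.56 (SE 0.17, adjusted p = 0.320 in edgeR). Summed DG markers in INH-like nuclei were at 765, 727, 738 and 756 CPM in control and 643, 698, 675 and 673 CPM in the matching stress pools. The list includes Prox1, which was also listed as a marker of the Adarb2 lineage of INH-like nuclei. The sum was lower in the stress pool in 4 of 4 pairs. Of the 3 INH-like clusters, Foxo1 was highest in the Egfr-led one (42.9 ± 10.8 CPM). This cluster made up 16.7% to 21.2% of INH-like nuclei in control and 13.8% to 16.9% in stress pools. Mean Foxo1 in control and stress pools was 39.5 and 24.6 CPM in the Adarb2-led, 34.6 and 22.7 in the Nxph1-led and 45.5 and 40.3 in the Egfr-led cluster. The part of these markers and shares in the result was not tested. In oligodendrocyte-like nuclei Foxo1 averaged 97.9 ± 13.1 CPM in control and 69.2 ± 14.5 CPM in stress pools (n = 4 each), lower in 4 of 4 pairs, with a log2 ratio of -0.60 (SE 0.24, adjusted p = 0.643 in edgeR). Oligodendrocyte precursor-like (-0.32) and Sulf1-led nuclei (-0.78) had ratios of the same sign, so that 7 of the 9 classes in which Foxo1 was tested lay below 0, with a median of -0.56. Genes that were lower at an unadjusted p under 0.05 made up 4.95% of those tested in DG-like, 6.36% in CA2/3-like, 6.57% in CA1-like and 4.04% in INH-like nuclei.

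Astrocyte-like nuclei, where mean Foxo1 was highest, did not share this direction. Foxo1 there had 193 CPM in Control-Vehicle and 178 in Stress-Vehicle, 235 and 126 in the PLX5622 pools, 208 and 278 in the IL-1R1+/+ pools, and 144 and 283 in the nIL-1R1-/- pools. It was lower after stress in both diet pairs and higher in both genotype pairs, and the fitted log2 ratio was 0.14 (SE 0.23, adjusted p = 0.887 in edgeR). Whether the diet and genotype pairs differed was not tested. In the Kcnh8-led class the log2 ratio was 0.08 (SE 0.31, adjusted p = 0.977).

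**Figure D2:**
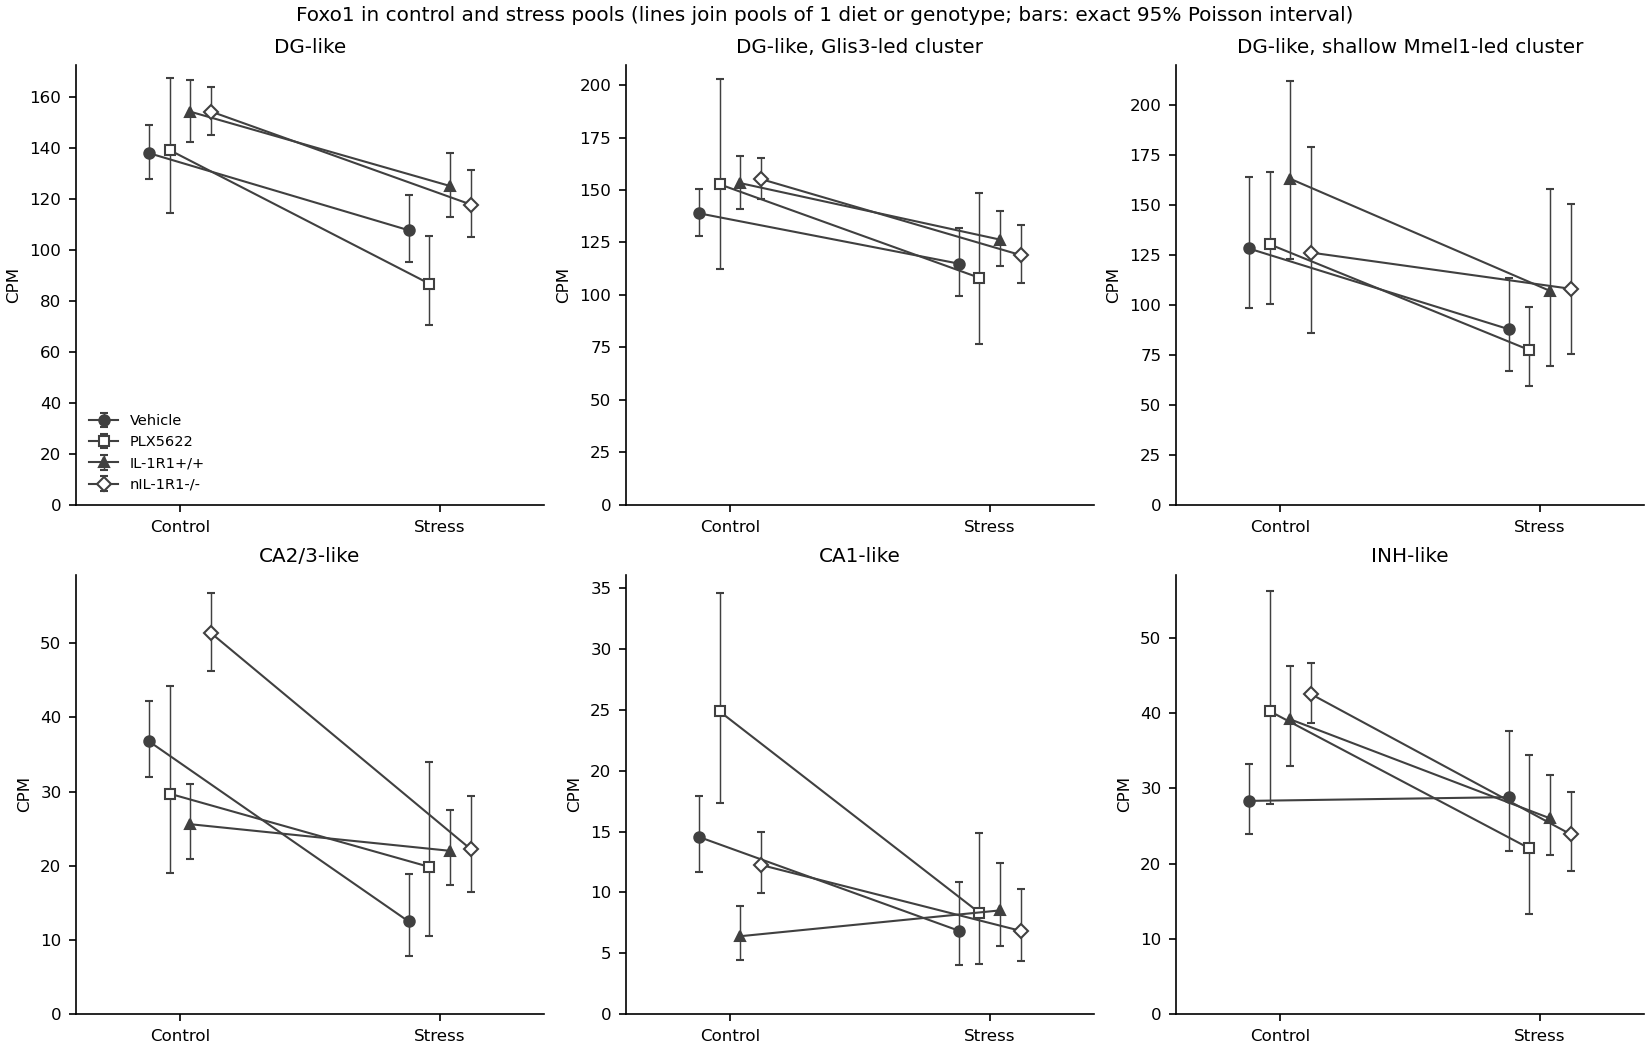
Foxo1 CPM (vertical axis, from 0) in the control and stress pool of each pair, joined by a line, in DG-like nuclei and their 2 clusters and in CA2/3-like, CA1-like and INH-like nuclei; bars are exact 95% Poisson intervals of 1 pool. All 4 stress points lie below all 4 control points in DG-like (86.7 to 124.9 against 137.8 to 154.1 CPM) and in CA2/3-like nuclei, whereas 1 pair of 4 goes the other way in CA1-like and 1 is level in INH-like nuclei.

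Foxo3 gave 2 results at an unadjusted p under 0.05, both higher after stress. In DG-like nuclei it averaged 80.2 ± 8.03 CPM in control and 66.9 ± 5.77 CPM in stress pools (n = 4 each), lower in 4 of 4 pairs, with a log2 ratio of -0.25 (SE 0.12, adjusted p = 0.442 in edgeR), and in CA2/3-like nuclei the ratio was -0.09 (SE 0.16). In astrocyte-like nuclei Foxo3 was 146 CPM in Control-Vehicle and 223 in Stress-Vehicle, 191 and 151 in the PLX5622 pools, 125 and 204 in the IL-1R1+/+ pools and 105 and 229 in the nIL-1R1-/- pools. It was higher in 3 of 4 pairs, and the log2 ratio was 0.55 (SE 0.22, adjusted p = 0.347 in edgeR). In the Sulf1-led class the ratio was 0.54 (SE 0.21, adjusted p = 0.302), led by the plain diet pair with 36.7 and 102 CPM, and it turned negative (-0.60) in thinned nuclei. Its ratio was above 0 in 5 of 10 classes and below 0 in the others.

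Igf1 in INH-like nuclei was higher in the stress pool of all 4 pairs. From the values given above, the log2 ratio was 0.42 (counting interval 0.13 to 0.71) under the plain diet, 0.20 (-0.36 to 0.76) under PLX5622, 0.40 (0.18 to 0.62) in IL-1R1+/+ and 0.46 (0.28 to 0.63) in nIL-1R1-/- mice. The groups overlapped, because the genotype pools stood above the diet pools whatever their stress. The fitted log2 ratio was 0.38 (SE 0.12, adjusted p = 0.327 in edgeR). In the Adarb2-led cluster, where Igf1 was most abundant, CPM was 147, 127, 192 and 193 in the control pools and 202, 180, 284 and 254 in the matching stress pools (plain diet, PLX5622, IL-1R1+/+, nIL-1R1-/-), again higher in 4 of 4 pairs. This cluster made up 25.0% to 28.9% of INH-like nuclei in control and 24.7% to 29.5% in stress pools, while the Egfr-led share was lower and the Nxph1-led share higher after stress in 4 of 4 pairs (Nxph1-led 52.5% to 57.1% in control and 55.6% to 59.5% in stress pools). In the Egfr-led cluster Igf1 was 39.7, 51.4, 102 and 47.3 CPM in control and 32.5, 49.7, 99.6 and 104 CPM in stress pools, higher only in the nIL-1R1-/- pair. In the Nxph1-led cluster, Igf1 was 22.7, 33.4, 36.7 and 30.9 CPM in control and 30.8, 28.1, 29.4 and 40.6 CPM in stress pools, with 2 pairs higher and 2 lower. Only CA1-like, DG-like and INH-like nuclei passed the filter on low counts for Igf1, and in the first 2 it rested on 75 and 50 UMIs.

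Irs2 was above 0 on the log2 scale in 7 of 9 classes, with a median of 0.32, and Irs1 below 0 in 8 of 9, with a median of -0.36. In CA1-like nuclei Irs2 had 45.9 CPM in Control-Vehicle and 34.7 in Stress-Vehicle, 29.8 and 46.9 in the PLX5622 pools, 34.8 and 49.6 in the IL-1R1+/+ pools, and 19.1 and 61.2 in the nIL-1R1-/- pools. The plain diet pair was lower after stress (log2 ratio -0.41, counting interval -0.76 to -0.06) and the other 3 higher, most of all nIL-1R1-/- (1.68, 1.37 to 1.99). The fitted log2 ratio was 0.59 (SE 0.24, adjusted p = 0.244 in edgeR). In thinned nuclei it was -0.01. DG-like nuclei had the same pattern, with Irs2 at 39.2 and 34.1 CPM under the plain diet, 22.5 and 48.4 under PLX5622, 32.3 and 39.9 in IL-1R1+/+ and 32.8 and 54.5 in nIL-1R1-/- mice (control, then stress). The log2 ratio there was 0.38 (SE 0.16, adjusted p = 0.343 in edgeR). In the Vehicle pair the ratio was thus of opposite sign to the other 3 in both classes, and whether it differed from them was not tested.

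**Figure D3:**
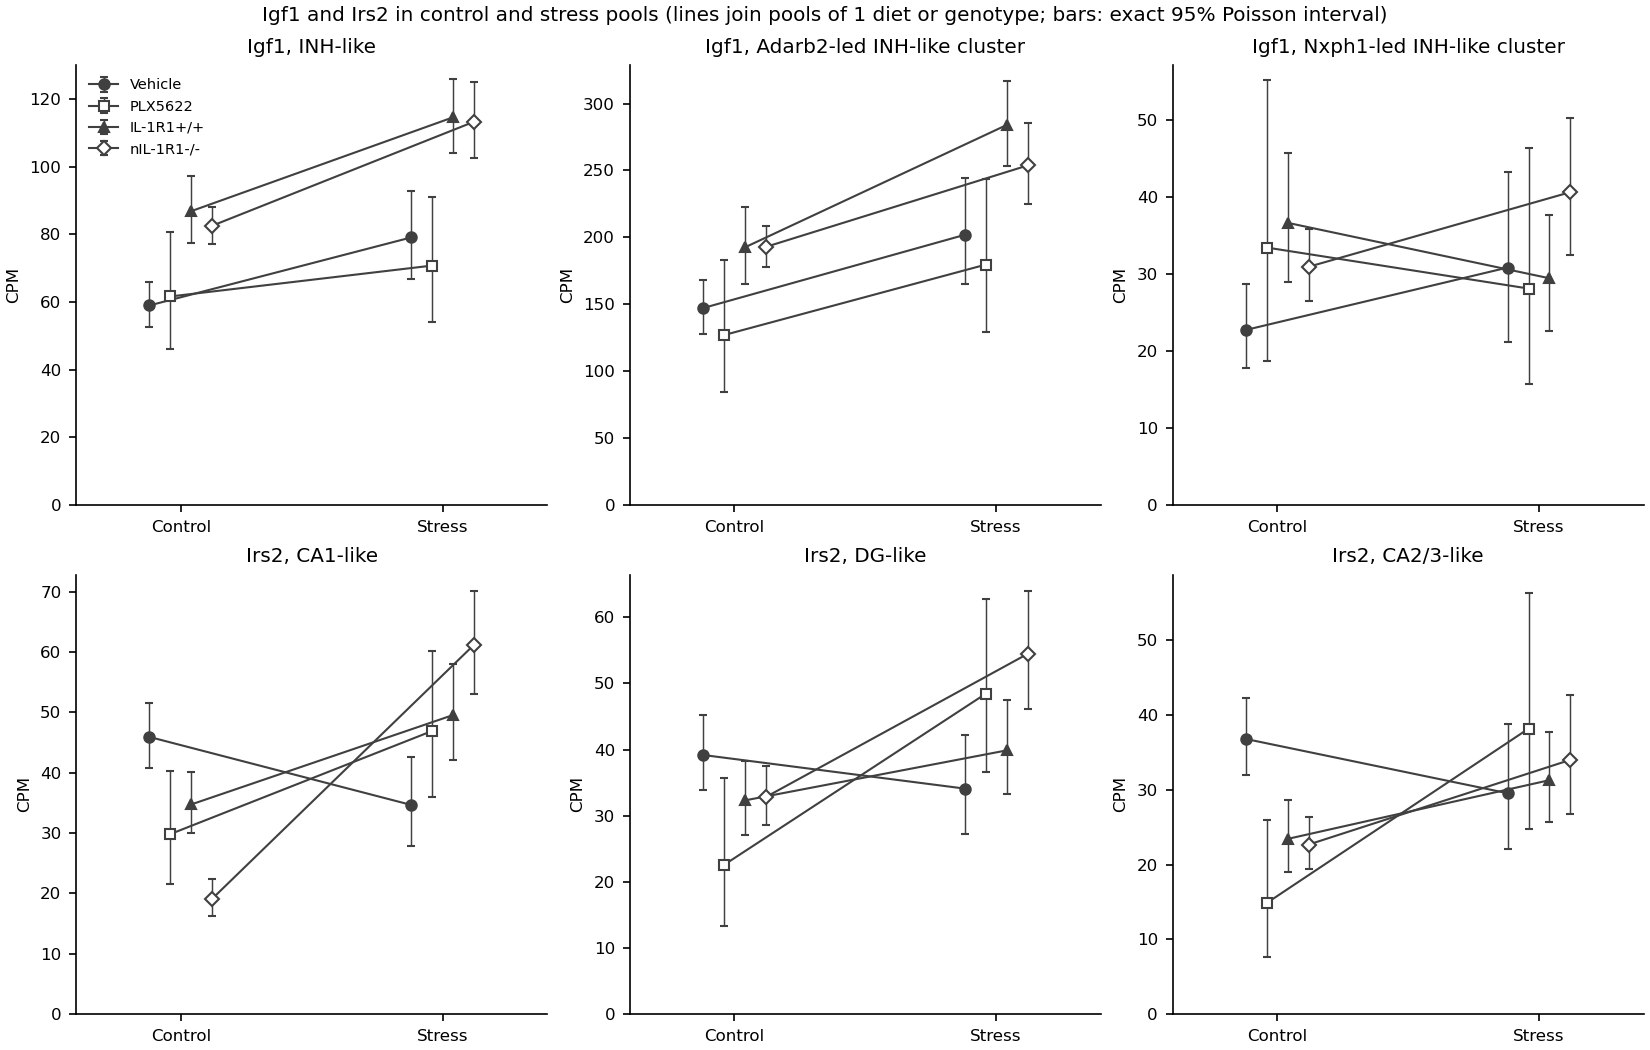
CPM (vertical axis, from 0) of Igf1 in INH-like nuclei and in their Adarb2-led and Nxph1-led clusters, and of Irs2 in CA1-like, DG-like and CA2/3-like nuclei, in the control and stress pool of each pair joined by a line; bars are exact 95% Poisson intervals of 1 pool. Every stress point of Igf1 in INH-like nuclei lies above its own control point, and for Irs2 in CA1-like nuclei 3 of 4 do, the Vehicle pair going from 45.9 to 34.7 CPM.

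Irs1 had its lowest ratio in oligodendrocyte-like nuclei (-0.86, SE 0.40, adjusted p = 0.753 in edgeR), where a pool held 1 to 33 UMIs. In INH-like nuclei it averaged 40.1 ± 4.95 CPM in control and 33.7 ± 3.93 CPM in stress pools (n = 4 each), lower in 4 of 4 pairs, with a log2 ratio of -0.25 (SE 0.14, adjusted p = 0.638 in edgeR). Irs1 was higher in the Egfr-led cluster (63.98 ± 25.0 CPM), whose share of the class was lower after stress in all 4 pairs, than in the Adarb2-led (34.8 ± 7.46) and Nxph1-led clusters (31.9 ± 6.36 CPM). Within the Nxph1-led cluster it was at 35.7 to 38.5 CPM in control and 22.5 to 34.1 CPM in stress pools, whereas the ranges overlapped in the Egfr-led (40.0 to 81.4 and 29.8 to 110 CPM) and Adarb2-led clusters (27.2 to 41.5 and 26.3 to 45.7 CPM). The share of all genes without overlap in the Nxph1-led cluster is not given here, and the part of the cluster makeup was not tested. CA1-like (-0.41) and CA2/3-like nuclei (-0.36) had ratios with the same sign in 3 of 4 pairs each, and oligodendrocyte precursor-like nuclei were alone above 0 (0.06). Grb10, too, was below 0 in 8 of 9 classes, with a median of -0.25. In CA1-like nuclei it had 31.7, 32.7, 18.5 and 30.8 CPM in control and 16.8, 12.1, 22.1 and 25.6 CPM in stress pools, with a log2 ratio of -0.50 (SE 0.22, adjusted p = 0.287 in edgeR), and the IL-1R1+/+ pair went the other way. As for Foxo1, the Ccn3-led cluster, whose share moved in the same direction in each pair, had more Grb10 (35.3 ± 7.33 CPM) than the Bc1-led (14.7 ± 12.7) and 4921539H07Rik-led clusters (13.0, from 6.46 to 18.4 over the pools). Within it Grb10 was at 42.8, 40.1, 28.9 and 46.7 CPM in control and 29.2, 26.4, 32.4 and 35.8 CPM in stress pools, lower in the same 3 of 4 pairs. With the Bc1-led and the shallow DG-like cluster left out, an alternative chosen after seeing the data, the ratio in CA1-like nuclei was -0.30 (adjusted p = 0.508 in edgeR). The part of the cluster makeup in the Grb10 value of the class was not tested. In the Sulf1-led class Grb10 had 66.1, 36.9, 66.3 and 72.6 CPM in control and 30.9, 51.7, 46.8 and 49.2 CPM in stress pools, lower in 3 of 4 pairs (log2 ratio -0.54, SE 0.21, adjusted p = 0.287).

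The receptors had small ratios. Igf1r ran from -0.29 to 0.15 over 10 classes with a median of 0.02, Insr from -0.05 to 0.35 over 10 with a median of 0.09, and Igf2r from -0.09 to 0.34 over 7 with a median of 0.09. Insr in the Kcnh8-led class, the third result without overlap, had 142.1, 123.0, 124.4 and 140.3 CPM in control and 194.3, 142.3, 156.7 and 147.4 CPM in stress pools, with a log2 ratio of 0.26 (SE 0.15, adjusted p = 0.769 in edgeR). Insr was also higher in the stress pool of all 4 pairs in CA2/3-like nuclei, at 115 ± 16.7 CPM in control and 135 ± 6.86 in stress pools (log2 ratio 0.19, SE 0.13, adjusted p = 0.504), and in oligodendrocyte-like nuclei, at 201 ± 20.5 and 242 ± 17.5 CPM (0.26, SE 0.17, adjusted p = 0.869). In DG-like nuclei Insr stood at 148 ± 12.6 CPM in control and 149 ± 5.99 CPM in stress pools.

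**Figure D4:**
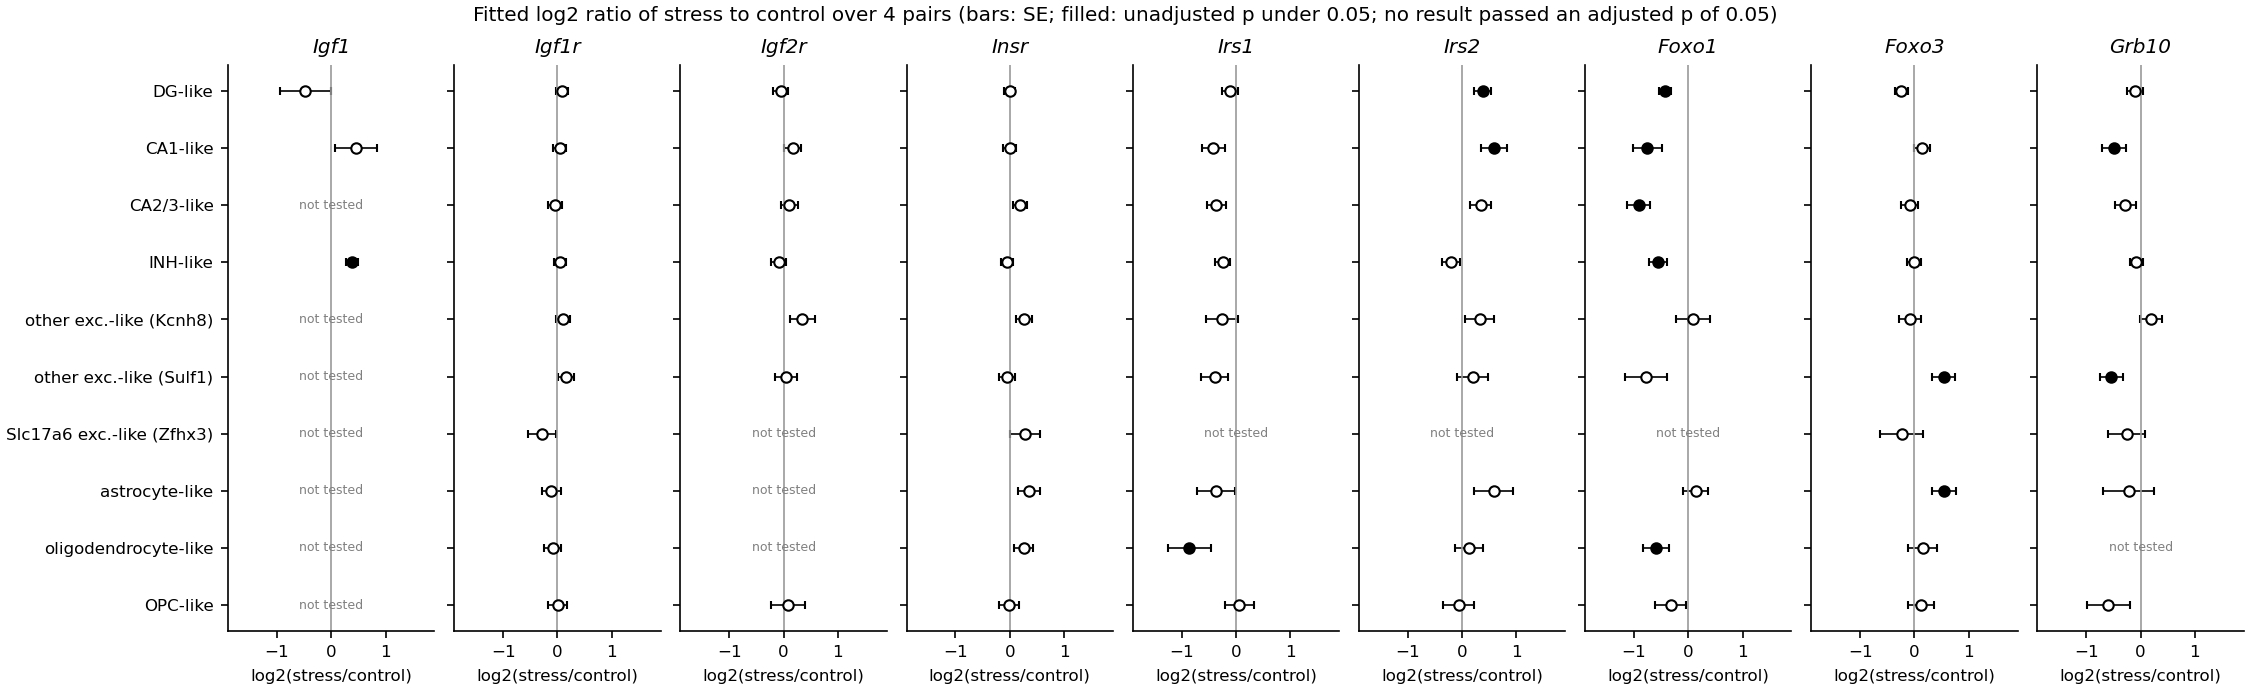
Fitted log2 ratio of stress to control over the 4 pairs (horizontal axis, 0 = no difference) for each of the 9 genes in 10 classes; bars are SE, filled points have an unadjusted p under 0.05, and genes that did not pass the filter on low counts are marked as not tested. Foxo1 lies below 0 in 7 of 9 classes and Irs1 and Grb10 in 8 of 9, Irs2 lies above 0 in 7 of 9, and Igf1r and Insr lie near 0. The classes share the same pools, so these signs are not separate observations. No result passed an adjusted p of 0.05.

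PLX5622 was compared with the plain diet through 2 pools of each. None of the 76 member results passed an adjusted p of 0.05 in edgeR (background 0.0395%) or DESeq2, and 4 (5.26%) had an unadjusted p under 0.05, as 5.23% of all results did. The median log2 ratio was -0.05. Igf2r in INH-like nuclei was at 40.2 and 37.9 CPM in Control-Vehicle and Stress-Vehicle and at 19.0 and 24.3 CPM in Control-PLX5622 and Stress-PLX5622, on 16 and 21 UMIs, with a log2 ratio of -0.78 (SE 0.26, adjusted p = 0.967 in edgeR). Grb10 in the same nuclei was at 76.6 and 70.5 CPM under the plain diet and at 49.8 and 49.9 under PLX5622 (-0.50, SE 0.21, adjusted p = 0.967). Igf2r in the Kcnh8-led class went the other way (0.76, SE 0.37, adjusted p = 0.988). The fourth result, Igf1 in DG-like nuclei (1.74, SE 0.72, adjusted p = 0.544), rested on 3 to 8 UMIs per pool. The PLX5622 pools were the shallowest of all, and the part of depth in these values was not tested.

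Deletion of Il1r1 in glutamatergic neurons was compared with IL-1R1+/+ in the same way. None of the 76 results passed an adjusted p of 0.05 in edgeR (background 0.0896%) or DESeq2, 2 (2.63%) had an unadjusted p under 0.05 where 2.81% of all results did, and the median log2 ratio was 0.01. Foxo1 in CA2/3-like nuclei was at 25.6 and 22.0 CPM in IL-1R1+/+ and at 51.4 and 22.2 CPM in nIL-1R1-/- mice (control, then stress), so that the ratio of 0.60 (SE 0.26, adjusted p = 1.00 in edgeR) came from the control pools. Igf1 in DG-like nuclei (-1.56, SE 0.60, adjusted p = 1.00) rested on 3 to 15 UMIs per pool. For the receptor genes the ratios of nIL-1R1-/- to IL-1R1+/+ ran from -0.23 to 0.27 (Igf1r), from -0.39 to 0.10 (Insr) and from -0.27 to 0.37 (Igf2r) over their classes.

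Over all nuclei of a pool, unnamed ones included, Igf1r was at 252 to 266 CPM in control and 277 to 342 CPM in stress pools, and Irs1 at 34.0 to 39.5 and 24.8 to 31.6 CPM. These 2 of the 9 genes did not overlap between the groups, as 4.91% of 15327 genes did. Class makeup differed between pools. The endothelial-like class, highest for Igf1r, made up 0.378%, 0.23%, 0.86% and 0.553% of all nuclei in the control pools (plain diet, PLX5622, IL-1R1+/+, nIL-1R1-/-). In the matching stress pools it made up 0.627%, 0.781%, 0.99% and 0.794%. The part of class makeup in these values was not tested. Foxo1 was at 51.7 to 60.0 CPM in control and 40.6 to 52.0 CPM in stress pools, which overlapped.

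The rest of the pathway was followed in lists of 75 genes, 56 of which passed the filter on low counts in at least 1 class, giving 417 gene-class results per comparison. For stress, 1 passed an adjusted p of 0.05, against 0.157% of all results and 1.02% of those of its own class, which held 83 of the 135 calls. It was Grb14, which encodes an adaptor of the Grb10 family that holds back the insulin receptor, in the Sulf1-led class. Grb14 there had 95.4 CPM in Control-Vehicle, 111 in Control-PLX5622, 97.1 in Con-IL-1R1+/+ and 106 in Con-nIL-1R1-/-, and 29.3, 58.2, 52.4 and 79.9 CPM in the matching stress pools. It was lower in 4 of 4 pairs without overlap. Over all classes 2.23% of results did not overlap in this direction, and the share in this class is not given here. The log2 ratio was -0.86 (SE 0.20, adjusted p = 0.0294 in edgeR), where 0.575% of the genes tested in the class were called lower. Grb14 was called under 8 of 17 alternatives. At an unadjusted p under 0.05, where the background was 6.08% higher and 4.84% lower (10.9% in all), genes of PI3K, Akt and their brakes had 7 higher and 19 lower of 127 results (20.5%) and those of TSC and mTOR 12 higher and 2 lower of 118 (11.9%). Receptors and adaptors had 6 higher and 4 lower of 89 (11.2%), other FoxO genes and reported FoxO targets 3 higher and 2 lower of 72 (6.94%), and ligands and binding proteins none of 11. The median log2 ratios were -0.14, 0.01, 0.03, -0.04 and 0.03 in the same order, with 0.00 over all genes. None of the 417 results passed for PLX5622 or for nIL-1R1-/- in edgeR. At an unadjusted p under 0.05 there were 16 higher and 13 lower for PLX5622 (6.95%, background 5.23%, of which 3.12% higher and 2.12% lower) and 1 higher and 10 lower for nIL-1R1-/- (2.64%, background 2.81%, of which 1.4% higher and 1.41% lower).

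By level, the other ligands were scarce in the 13 classes compared: Ins1 gave no UMI there, Ins2 at most 1.44 CPM and Igf2 at most 7.33 ± 6.78 CPM as a class mean, in endothelial-like nuclei (n = 7). The unnamed nuclei are not in these levels. They included a cluster of 138 nuclei that scored highest for vascular leptomeningeal markers. Another, of 112 nuclei, scored highest for ependymal and then choroid plexus markers. Igfbp7, which encodes a binding protein of vessel walls, was at 813 ± 330 CPM in endothelial-like nuclei. Oligodendrocyte-like nuclei, first for Irs2, were also first for the adaptor gene Gab1 (831 ± 194 CPM), for Grb14 (295 ± 48.1), for Pik3r1 (292 ± 53.2), which encodes the regulatory subunit of PI3K, and for Phlpp1 (2555 ± 295), which encodes a phosphatase that inactivates Akt. Of the 17 reported FoxO targets, 7 were highest in endothelial-like nuclei, among them Sesn1 (177 ± 43.8 CPM, n = 7) and Klhl24 (67.8 ± 19.0). Another 3 were highest in oligodendrocyte-like nuclei, among them Fbxo32 (103 ± 34.6), 2 each in microglia-like and Sulf1-led nuclei and 1 each in DG-like (Bcl6, 78.1 ± 9.61), Zfhx3-led and astrocyte-like nuclei. Among these, G6pc (endothelial-like), Pck1 (microglia-like) and Trim63 (Sulf1-led) rested on 1 UMI each in that class. Other first places were near ties. Cat was at 27.6 ± 9.61 CPM in endothelial-like and 27.2 ± 40.8 in Cajal-Retzius-like nuclei, where Sesn1 was at 166 ± 59.5. Cdkn1b was at 21.9 ± 9.75 CPM in oligodendrocyte-like and 21.6 ± 8.90 in endothelial-like nuclei. The share of all genes that were highest in each class is not given here. The target highest in astrocyte-like nuclei was Sesn3 (98.8 ± 43.6 CPM), with 70.4 ± 28.1 CPM in endothelial-like nuclei. Mtor in astrocyte-like nuclei (108 ± 12.6 CPM) was close to that in Kcnh8-led (105 ± 24.4) and CA1-like nuclei (104 ± 19.5).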

How the data were processed

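Nuclei of hippocampus were barcoded by split-pool ligation (Parse) and sequenced as 4 sublibraries that each held all 8 pools. Per the labels and the methods, the authors aligned reads to mm39 with the Parse pipeline and deposited raw UMI counts per gene and nucleus for each pool; the submitters' processing notes name Seurat 4.1.1, used after these counts were made. Nuclei were assigned to pools by the deposited metadata, and 0 columns of per-sample values were left unused.

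From these counts, 516 nuclei with more than 20% mitochondrial UMIs were removed before clustering in scanpy 1.11.5 (2000 variable genes without the 9 genes or their pathway lists, 30 principal components, 15 neighbours, Leiden resolution 1.0). Clusters were named by marker lists, and the naming rule was revised 1 time after the cluster table was seen and before the genes were compared. A name needed 3 detected markers, a mean marker score of 0.4 and a lead of 1.25 times over the second list. A cluster with 3 of its own markers among its 10 leading genes was excused from the score and, with at least 2 times as many of them as of the second list, from the lead. The Zfhx3-led class (score 0.376) and the endothelial-like class (1.0 against 0.816 for mural cells) were named in that way. Doublets were left in, and leaving out the 6% with the highest Scrublet scores was an alternative. Total UMIs kept per pool ranged from 7534594 to 58081835, and intervals cover counting error only. CPM of a pool has an exact Poisson interval, and a ratio of 2 pools an exact conditional binomial one.

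UMIs were summed per class and pool and tested in edgeR 4.0.16 (R 4.3.3) by the quasi-likelihood test with TMM scaling and filterByExpr, with stress and the 4 arms (diet or genotype) as terms and 3 residual degrees of freedom, for 10 classes of at least 20 nuclei in every pool. P-values were adjusted by Benjamini-Hochberg over all genes of a class. The pair term comes from the design, in which diet or genotype joins 1 control and 1 stress pool. The scripts were tested on simulated data. Named were all 9 genes in every class tested, pathway genes past the threshold (at most 5 per comparison), and for each gene the 3 with the most alike class means among those of at least 10 CPM in a class. Some of these most alike genes are not reported here. The genes and lists were chosen with earlier results of these data known. Alternatives were no TMM, DESeq2 1.42.0, no filter, nuclei thinned to 500 UMIs (5858 to 8474 nuclei per pool before thinning, with 0.0% to 40.3% too shallow), Leiden resolution 2.0, a 5% mitochondrial limit, no pair term, each pool left out and, chosen after seeing the data, the shallow DG-like and CA1-like clusters left out. For levels, a pseudocount of 5 in place of 1 and a minimum of 50 nuclei were also tried. Gene positions are those of GRCm39 in GENCODE vM39, an annotation that may differ from the one used for counting.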

Additional observations from a re-analysis of the deposited data

Results flagged for a closer look

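Control pools and stress pools were each examined as groups of 4 for every gene and class tested, and in 8 of 152 groups 1 pool stood far from the other 3, its gap to the nearest, over the whole range, exceeding Dixon's 95% critical value. Chance flags about 1 in 20 groups.

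Igf1r stood apart in 3 of them. It was at 212.7 CPM in DG-like nuclei of Con-nIL-1R1-/-, below 239.4 to 243.0 CPM in the other control pools. In INH-like nuclei it was at 229.7 CPM in Stress-Vehicle, above 175.1 to 184.3 in the other stress pools. In oligodendrocyte-like nuclei it was at 283.5 CPM in Stress-PLX5622 (45 UMIs), below 323.8 to 328.9.

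Igf2r was at 18.95 CPM in INH-like nuclei of Control-PLX5622 (16 UMIs), below 40.17 to 43.12 in the other control pools, and at 52.43 CPM in Sulf1-led nuclei of Control-Vehicle, above 38.32 to 40.64. Irs1 was at 27.83 CPM in INH-like nuclei of Stress-PLX5622 (24 UMIs), below 35.12 to 36.32. Grb10 was at 18.48 CPM in CA1-like nuclei of Con-IL-1R1+/+, below 30.75 to 32.68, and this is the pool of the pair in which Grb10 went against the other 3. In Kcnh8-led nuclei of Stress-PLX5622, Grb10 was at 37.46 CPM on 10 UMIs, below 77.46 to 82.76. These 8 values came from 6 pools, and 4 of them from the 2 PLX5622 pools, the shallowest of the series. The part of depth was not tested.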

How the results depend on the processing

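Stress called 1 result among the 9 genes, Foxo1 in CA2/3-like nuclei, without the filter on low counts and at Leiden resolution 2.0, where it had called 0, and from 0 to 1 when a pool was left out (1 without Control-PLX5622 or Stress-PLX5622). Under the other alternatives, the fit with no replicate block (the pair term removed) included, it called 0, and PLX5622 and nIL-1R1-/- called 0 throughout. Over all genes and classes, stress called 135 results, against 316 in DESeq2, 1167 without the filter, 297 at resolution 2.0, 234 without the shallow clusters, 30 with no replicate block and 97 in thinned nuclei. From 122 to 308 were called with a pool left out. For PLX5622 the 34 calls became 182 without the filter, 19 in DESeq2 and 21 to 263 with a pool left out, and for nIL-1R1-/- the 77 became 175, 57 and 51 to 216, with 16 in thinned nuclei. Without the filter the median of all genes in a class moved by as much as -0.71 (stress), and the cause of the added calls was not tested.

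Some log2 ratios, none past the threshold, turned. For stress in thinned nuclei these were Foxo1 in astrocyte-like (-0.30), Foxo3 in Sulf1-led (-0.60) and Irs2 in CA1-like nuclei (-0.012), and for nIL-1R1-/- Foxo1 in CA2/3-like nuclei (-0.038). Foxo1 in oligodendrocyte precursor-like nuclei turned to 0.042 without the highest Scrublet scores, and in Kcnh8-led nuclei to -0.27 at resolution 2.0. With a pool left out, Foxo1 ran from -0.15 to 0.39 in astrocyte-like nuclei (negative without Con-nIL-1R1-/- or Stress-nIL-1R1-/-) and from -0.066 to 0.15 in Kcnh8-led nuclei (negative without Control-Vehicle or Stress-Vehicle).

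The class with the highest mean stayed first in all 15 alternatives for Igf1, Irs2 and Foxo1 and in 14 for Igf1r, Insr and Grb10, the minimum of 50 nuclei having removed endothelial-like nuclei. It stayed first in 10 of 15 for Igf2r, 6 for Foxo3 and 5 for Irs1, whose first class had 27 UMIs. At resolution 2.0 a vascular leptomeningeal-like class, not named in the main clustering, was first for Igf2r, Foxo3 and Irs1. No neighbouring pair of levels passed in any of the alternatives. Igf1 rested on few UMIs outside INH-like nuclei, with 191 in Zfhx3-led and 75 each in CA1-like and microglia-like nuclei, against 2588. The PLX5622 pools were the shallowest, at a median of 598 and 628 UMIs per nucleus. The part of depth in these values was not tested.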
